A study of Homo sapiens with 10 samples.

Results

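The mitochondrial DNA and RNA maintenance machinery is followed here through 35 nuclear genes, chosen by name from the 78894 gene IDs of the deposited table as the factors that copy, transcribe, process, stabilise and degrade mitochondrial nucleic acids. Cells of HEK293T, a widely used line of human embryonic kidney origin, were cultured for 24 h in cysteine-free (0X, 2 libraries), complete (1X, 4 libraries) or excess-cysteine medium (10X, 4 libraries), and poly(A)-selected RNA was sequenced. The labels name no genetic change in any group, and the libraries of a group are given as biological replicates of this single line, with nothing said of how the cultures were kept apart. All 35 genes matched a symbol and passed the filter on low values, and they were grouped by role into transcription (8 genes), replication (6), RNA processing (7), RNA stability (8), RNA decay (3) and nuclear regulators (3).

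Human mitochondrial DNA encodes 13 mRNAs, 2 rRNAs and 22 tRNAs, and every protein that maintains and expresses it is made from nuclear genes and imported. A dedicated polymerase, POLRMT, transcribes both strands into long precursors with the help of TFAM and TFB2M. The precursors are cut around the tRNAs by RNase P and the 3' endonuclease ELAC2, the mRNAs are held by the LRPPRC and SLIRP complex, and the helicase SUPV3L1 and the phosphorylase PNPT1 degrade them. The nuclear genes of this machinery are known targets of NRF1 and GABPA and of the PGC-1 coactivators, of which PPARGC1B is a member.

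The promoters of the 3 core initiation factors are shown because POLRMT and TFB2M moved with cysteine whereas TFAM was not called in either medium, as described below. Each line gives the 250 bases before the RefSeq start, read 5' to 3' on the strand of the gene. They lie in GRCh38.p14 at chr19:633538-633787 (minus strand) for POLRMT, chr10:58385160-58385409 (plus strand) for TFAM and chr1:246566262-246566511 (minus strand) for TFB2M. Capitals mark exact matches, on either strand, to GCGCATGC and to CCGGAAG. These strings were chosen for the NRF1 motif and for the ETS motif that GABPA binds. They are called the NRF1 core and the ETS core below. Other forms of these motifs, such as strings that differ by a base, are neither marked nor counted.
POLRMT: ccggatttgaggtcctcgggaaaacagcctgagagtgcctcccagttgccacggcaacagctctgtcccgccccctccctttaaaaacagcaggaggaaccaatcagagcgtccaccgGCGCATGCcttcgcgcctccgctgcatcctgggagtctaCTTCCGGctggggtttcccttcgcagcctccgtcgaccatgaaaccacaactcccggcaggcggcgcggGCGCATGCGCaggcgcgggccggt
TFAM: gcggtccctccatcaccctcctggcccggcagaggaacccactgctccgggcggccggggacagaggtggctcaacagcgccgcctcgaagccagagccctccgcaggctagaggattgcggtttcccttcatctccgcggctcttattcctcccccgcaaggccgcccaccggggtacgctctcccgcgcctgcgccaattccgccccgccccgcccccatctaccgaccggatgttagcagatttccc
TFB2M: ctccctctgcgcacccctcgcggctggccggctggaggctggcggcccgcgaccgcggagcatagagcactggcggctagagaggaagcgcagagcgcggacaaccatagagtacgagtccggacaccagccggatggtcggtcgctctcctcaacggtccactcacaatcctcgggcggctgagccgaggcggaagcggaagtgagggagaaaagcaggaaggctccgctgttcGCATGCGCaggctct

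In POLRMT, the NRF1 core began at positions -132, -24 and -22 from the start, the last 2 being overlapping matches on opposite strands, and the ETS core began at -93. TFB2M held the NRF1 core at -15. It held no exact CCGGAAG, but its line holds gcggaag, which differs from that string by a single base. The TFAM window held neither string, which says only that these letters are not in it. The TFAM line holds ccggatg, which also differs from CCGGAAG by a single base. The RefSeq start of TFAM lies inside the gene as given below, which begins at 58385345, so the TFAM window reaches into that gene. RefSeq promoter windows, each of 250 bases before and 50 after a start, were found for 30 of the 35 genes. The NRF1 core was in those of 4 genes (13.3%), POLRMT, TFB1M, TFB2M and MTPAP, and in 3.68% of 27305 genes with a window or 5.64% of the 13855 of these that were tested for expression. The ETS core was in those of 12 genes (40%) and in 12.2% and 19.1% of the same 2 sets. The 12 were ELAC2, GABPA, MTERF1, MTERF4, POLG2, POLRMT, SLIRP, SSBP1, TBRG4, TEFM, TFB1M and TRMT10C. These are matches of letters and not sites of binding.

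The deposited values are read counts divided by the size factor of the library and are called normalized counts. The 10 libraries held between 34836014 and 61654861 reads on genes. Changes are given as log2 fold changes of the normalized count plus 1, tested with limma (2-sided). The p-values were adjusted by the Benjamini-Hochberg method across 29045 genes that passed the filter, and a gene is said to be called where the adjusted p did not exceed 0.01. The p-values measure the spread between these libraries. Of the markers checked, the 7 HEK293T genes summed to between 50596 and 57552 in complete, 54157 and 54682 in cysteine-free and 60163 and 63606 in excess medium, with none at 0. Liver and T cell markers summed to at most 37.1, with FGA and CD3E at 0 in all 10 libraries. The higher sum in excess medium came from VIM, KRT8 and KRT18, while the means of PAX2, LIN28B, NEFM and CDH2 were slightly below those in complete medium. The part of this difference in the results below was not tested.

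The background to these genes was a loss of mitochondrial RNA in excess medium. The 37 mitochondrial genes took 4.74%, 5.05%, 4.53% and 4.51% of the reads in the complete libraries and 0.146%, 0.121%, 0.117% and 0.133% in the excess libraries. The groups lay far apart, at 4.71% ± 0.25 (SD, n = 4) against 0.129% ± 0.0129 (SD, n = 4), a 36.4-fold lower share (p = 0.029 in a 2-sided exact permutation test, the lowest value possible for 4 against 4). The log2 fold changes of the 13 mRNAs lay between -7.79 and -6.0, and those of MT-RNR1 and MT-RNR2 were -3.45 and -3.14. In cysteine-free medium the share was 5.15% and 5.71%, above all complete libraries (p = 0.067 in a 2-sided exact permutation test, the lowest value possible for 2 against 4). There, 5 of the 13 mRNAs were called higher, MT-CO1, MT-CO2, MT-CYB, MT-ND4 and MT-ATP8, none was called lower, and MT-RNR1 fell by 0.50. Of the 22 tRNA genes, 2 were called higher and 4 lower, with log2 fold changes between -1.05 and 0.74. All 22 were called lower in excess medium, between -7.74 and -3.47. All of these are reads from poly(A)-selected RNA, so that fewer molecules, shorter tails and fewer mitochondria cannot be told apart. Reads on the tRNA genes were not separated into mature tRNAs, uncut precursors and neighbouring transcripts. They are not taken here as a measure of mature tRNAs. The values are relative to the other reads of each library and do not measure the number of cells. Mitochondrial DNA was not analysed here.

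Against this, the changes of the maintenance genes in excess medium were small. Of the 35, 21 (60%) were called lower, 1 (2.9%), MTERF2, was called higher and 13 were not called. Over all genes tested, 22.9% were called lower and 23.1% higher, together 46.0%. Among the 11287 protein-coding genes with a mean of at least 300, a level all 35 genes exceeded, 37.9% were called lower and 29.7% higher. The median log2 fold change of the 35 genes was -0.28, with a range from -1.10 to 0.24, beside a median of 0.01 over all genes tested. For 23 genes every excess library lay below every complete library, as it did for 25.5% of all genes tested. The deepest fall among the 35, that of PPARGC1B, left 46.5% of the level in complete medium, whereas the most preserved mitochondrial mRNA, MT-ND1, had a log2 fold change of -6.0.

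In cysteine-free medium, 15 of the 35 genes (42.9%) were called lower, none was called higher and 20 were not called. Over all genes tested, 8.51% were called lower and 7.39% higher, together 15.9%, and among the protein-coding genes with a mean of at least 300 the shares were 17.1% and 11.3%. The median log2 fold change was -0.23, from -1.05 to 0.16, beside 0.00 over all genes. This count rests on 2 cysteine-free libraries: without replicate 1 it was 8 and without replicate 2 it was 9, and with no filter on low values, which reduced the calls over all genes to 738, it was 6. The calls of POLRMT, TFB2M, SSBP1, FASTKD5, TBRG4 and PPARGC1B held under all 17 alternatives tried, whereas those of PRORP, ELAC2, GRSF1, SLIRP, PNPT1 and SUPV3L1 were lost without either cysteine-free library. In the same medium no mitochondrial mRNA was called lower, while MT-RNR1 and 4 of the 22 mitochondrial tRNA genes were. A link between the maintenance genes and mitochondrial RNA was not tested.

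**Figure D1:**
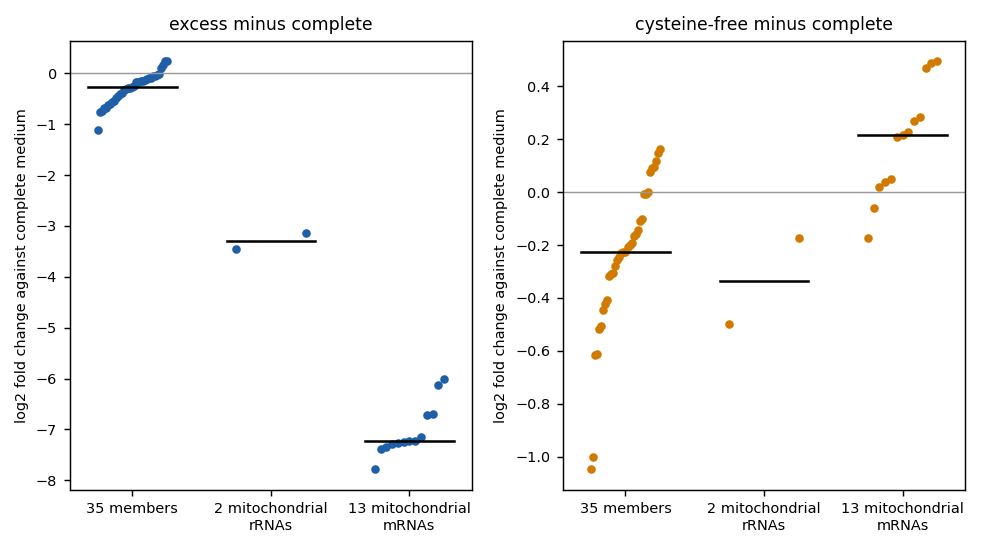
Log2 fold change against complete medium (y axis) of the 35 maintenance genes, the 2 mitochondrial rRNAs and the 13 mitochondrial mRNAs in excess (left) and cysteine-free medium (right), with a point per gene and a line at each median. The y axes differ in range: on the left the genes of the machinery lie between -1.10 and 0.24 and the mRNAs between -7.79 and -6.0, and on the right the genes of the machinery reach from -1.05 to 0.16 and the mRNAs from -0.17 to 0.49.

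Both comparisons share the complete libraries, so the cysteine-free and excess libraries were also compared directly. Here 10 of the 35 genes (28.6%) were called higher and 7 (20.0%) lower in cysteine-free than in excess medium. Over all genes these shares were 23.6% and 24.4%, together 48.0%. Among the protein-coding genes with a mean of at least 300 they were higher, at 35.9% and 32.5%, together 68.5%. The median difference of the 35 genes was 0.06 beside 0.00 over all genes. Those lower in excess medium were PPARGC1B, SLIRP, PNPT1, ELAC2, MTERF3, HSD17B10, TFB1M, FASTKD2, FASTKD3 and TOP1MT. Those lower in cysteine-free medium were TFB2M, TWNK, TBRG4, POLG, FASTKD5, SUPV3L1 and MTERF2. POLRMT, SSBP1, TRMT10C, PRORP and GRSF1, each called lower against complete medium in both, were not called in the direct test. Of these 17 calls 12 held under all alternatives, and those of ELAC2, FASTKD2, TWNK, TBRG4 and SUPV3L1 were lost under some, among them leaving out 1 of the cysteine-free libraries. The heat map of the 35 genes shows these patterns library by library.

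**Figure D2:**
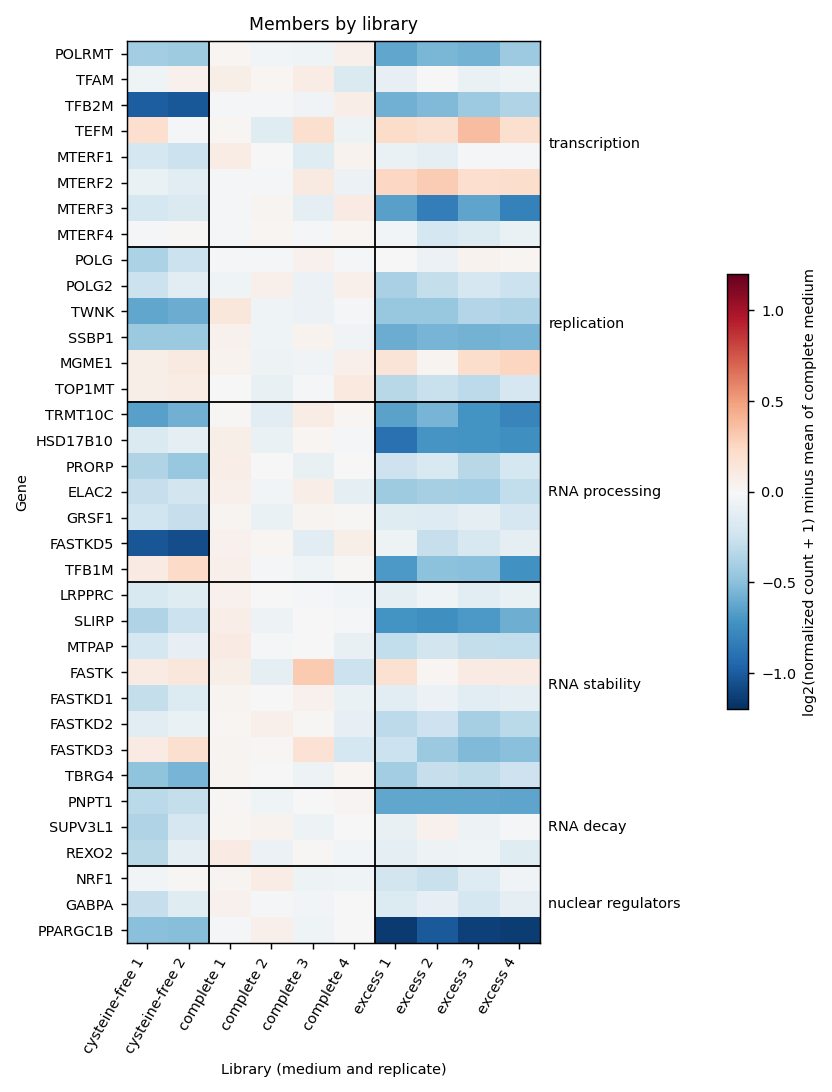
Log2 of the normalized count plus 1 minus the mean of the 4 complete libraries (colour) for each of the 35 genes (rows, grouped by role) in each of the 10 libraries (columns). PPARGC1B is darkest in the excess libraries, TFB2M and FASTKD5 in the cysteine-free libraries, and MTERF2 is above the complete mean in all 4 excess libraries.

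Of the 8 transcription genes, 3 were called lower and MTERF2 higher in excess medium (median -0.09), and 2 were called lower in cysteine-free medium (median -0.15). Beside this and each role below stand the shares called lower among protein-coding genes with a mean of at least 300. They were 37.9% in excess and 17.1% in cysteine-free medium. POLRMT (ENSG00000099821, chr19:617221-633537, minus strand) encodes the mitochondrial RNA polymerase. It read 4318, 4162, 4114 and 4443 in the complete, 2763, 2919, 2875 and 3139 in the excess and 3186 and 3169 in the cysteine-free libraries. Both altered media lay below every complete library. Its log2 fold change was -0.54 (SE 0.047, limma, adjusted p = 3.51e-08) in excess and -0.42 (SE 0.0562, adjusted p = 1.26e-04) in cysteine-free medium, and between these 2 media it differed by 0.12 (limma, adjusted p = 3.93e-02), which was not called.

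TFB2M (ENSG00000162851, chr1:246540561-246566261, minus strand), which opens the promoter for POLRMT, had the lowest level of the 3 initiation factors in complete medium, at 416 normalized counts per kb of its canonical transcript beside 1129 for POLRMT and 1149 for TFAM. It read 732, 733, 723 and 783 in the complete, 499, 514, 547 and 579 in the excess and 375 and 366 in the cysteine-free libraries. The 3 groups did not overlap. The log2 fold change was -1.0 (SE 0.0876, limma, adjusted p = 4.47e-06) in cysteine-free and -0.48 (SE 0.0676, adjusted p = 1.26e-05) in excess medium, and the difference between them, -0.53, was called (limma, adjusted p = 7.29e-06). TFB2M RNA was thus lowest in cysteine-free medium, and its relation to mitochondrial RNA was not tested.

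TFAM (ENSG00000108064, chr10:58385345-58399220, plus strand), which both packages mitochondrial DNA and starts its transcription, stayed within the spread of the complete libraries. It read 6035, 5837, 6109 and 5119 in the complete, 5381, 5729, 5465 and 5548 in the excess and 5548 and 5982 in the cysteine-free libraries, and the groups overlapped. The log2 fold changes were -0.06 (SE 0.051, limma, adjusted p = 0.340) in excess and 0.00 (SE 0.0705, adjusted p = 0.999) in cysteine-free medium.

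MTERF3, a member of the termination factor family that binds the promoter region of mitochondrial DNA, fell in excess medium. It read 870, 904, 821 and 947 in the complete, 562, 497, 570 and 504 in the excess and 765 and 784 in the cysteine-free libraries. The excess libraries lay below all others, with a log2 fold change of -0.73 (SE 0.0705, limma, adjusted p = 1.30e-07), and cysteine-free exceeded excess medium by 0.54 (limma, adjusted p = 1.72e-06). MTERF2, of the same family, rose by 0.24 in excess medium (limma, adjusted p = 1.08e-03). It shares 422 exon bases with TMEM263 on the other strand, whose mean rose from 2634 to 3774, and reads spread evenly over TMEM263, if counted for both genes, would make up 18.2% of the count of MTERF2 in complete and 22.1% in excess medium. The part of this overlap in the rise was not tested. The elongation factor TEFM had a log2 fold change of 0.24 in excess medium that was not called (limma, adjusted p = 1.42e-02), and it shares 542 exon bases with a gene on the other strand. MTERF1 and MTERF4 were called in neither medium.

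**Figure D3:**
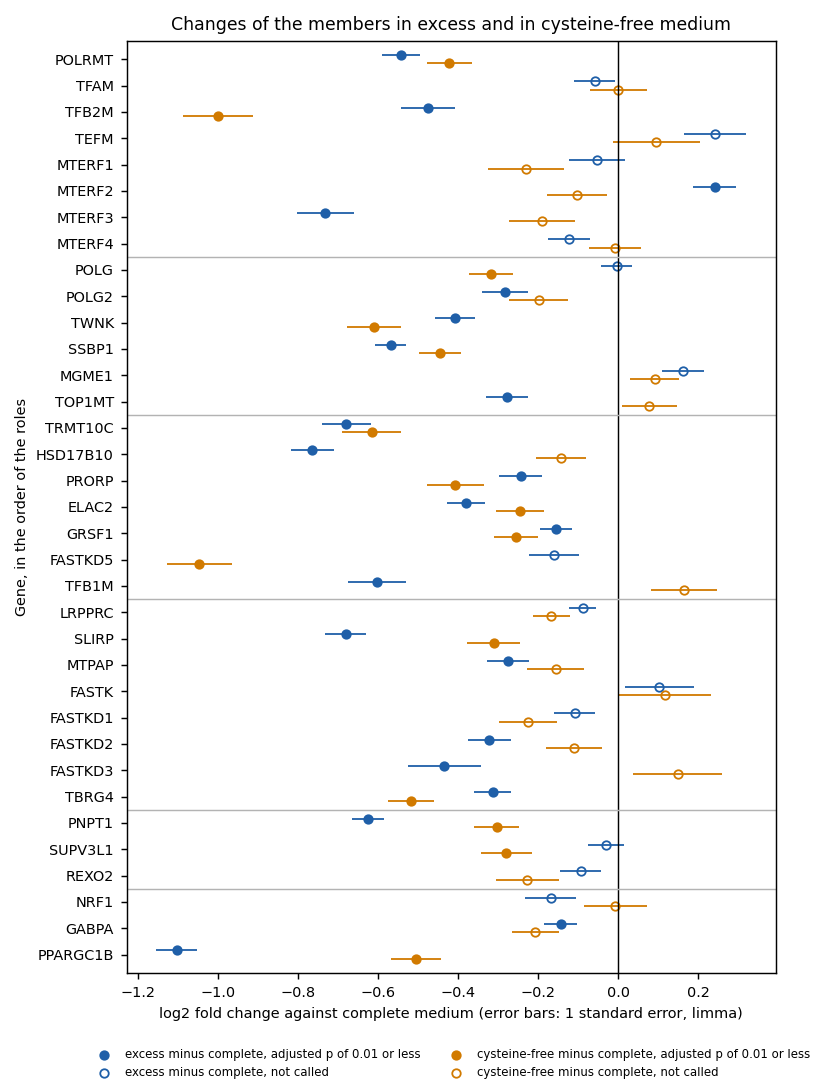
Log2 fold change against complete medium (x axis) with its standard error from limma for each of the 35 genes (y axis, in the order of the roles), in excess and in cysteine-free medium. Filled points had an adjusted p not above 0.01: 22 in excess, all but MTERF2 to the left of 0, and 15 in cysteine-free medium, all to the left of 0.

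Of the 6 replication genes, 4 were called lower in excess (median -0.28) and 3 in cysteine-free medium (median -0.26). SSBP1, the mitochondrial single-stranded DNA-binding protein, had the highest level per length of the 35 genes, at 9282 normalized counts per kb in complete medium. It read 6490, 6073, 6462 and 6110 in the complete, 4166, 4268, 4235 and 4268 in the excess and 4609 and 4615 in the cysteine-free libraries. Its log2 fold change was -0.57 (SE 0.0389, limma, adjusted p = 1.95e-09) in excess and -0.45 (SE 0.0532, adjusted p = 5.76e-05) in cysteine-free medium. The replicative helicase TWNK was lowest in cysteine-free medium. It read 3683, 3238, 3196 and 3315 in the complete, 2442, 2452, 2623 and 2592 in the excess and 2178 and 2215 in the cysteine-free libraries. The 3 groups did not overlap, and the log2 fold changes were -0.41 (SE 0.0509, limma, adjusted p = 2.88e-06) in excess and -0.61 (SE 0.0669, adjusted p = 2.86e-05) in cysteine-free medium.

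The 2 subunits of the mitochondrial DNA polymerase were called in different media, and the difference between them was not tested. POLG, the catalytic subunit, kept 99.7% of its level in excess medium (log2 fold change 0.00, SE 0.0387, limma, adjusted p = 0.930) and fell by 0.32 in cysteine-free medium (limma, adjusted p = 8.38e-04), a call lost without cysteine-free replicate 1. The accessory subunit POLG2 fell by 0.28 in excess medium (limma, adjusted p = 4.05e-04) and was not called in cysteine-free medium, at -0.20 (limma, adjusted p = 5.92e-02). The topoisomerase TOP1MT fell by 0.28 in excess medium (limma, adjusted p = 2.60e-04), and the exonuclease MGME1 was not called in either medium, with 0.16 in excess (limma, adjusted p = 1.43e-02) and 0.09 in cysteine-free medium.

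RNA processing was the role with the most calls: 6 of 7 genes were called lower in excess (median -0.38) and 5 of 7 in cysteine-free medium (median -0.26). The shares called lower among protein-coding genes with a mean of at least 300 were 37.9% and 17.1%. Differences between the roles, each of 3 to 8 genes, were not tested. The 3 subunits of RNase P, which frees the 5' ends of the tRNAs, were all called lower in excess medium. HSD17B10, which serves both in RNase P and as a dehydrogenase of isoleucine breakdown, read 3241, 2913, 3130 and 3042 in the complete, 1656, 1886, 1872 and 1846 in the excess and 2722 and 2858 in the cysteine-free libraries. Its log2 fold change was -0.76 (SE 0.0527, limma, adjusted p = 2.21e-09) in excess and -0.14 (SE 0.062, adjusted p = 0.106) in cysteine-free medium. Its partner TRMT10C, a tRNA methyltransferase, fell in both media, to 62.4% in excess (log2 fold change -0.68, limma, adjusted p = 5.66e-08) and 65.1% in cysteine-free medium (-0.62, adjusted p = 5.89e-05), and the difference between these media, 0.06, was not called (limma, adjusted p = 0.406). The nuclease subunit PRORP fell by 0.24 and 0.41, but it shares 2858 exon bases with an unnamed gene on the same strand whose mean is 4506 in complete medium, so its value is uncertain. ELAC2, which cuts the 3' ends of the tRNAs, fell by 0.38 in excess (limma, adjusted p = 2.68e-06) and by 0.25 in cysteine-free medium (limma, adjusted p = 8.40e-03).

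FASTKD5, needed to process the mRNA junctions that no tRNA marks, had the deepest fall of the 35 genes in cysteine-free medium. It read 1360, 1334, 1196 and 1383 in the complete, 1265, 1088, 1154 and 1212 in the excess and 643 and 629 in the cysteine-free libraries. The cysteine-free libraries lay below all others, whereas excess and complete libraries overlapped. The log2 fold change was -1.05 (SE 0.0809, limma, adjusted p = 1.65e-06) in cysteine-free and -0.16 (SE 0.0627, adjusted p = 3.80e-02) in excess medium, and the direct difference was -0.89 (limma, adjusted p = 2.90e-11). TFB1M, which methylates the small rRNA and is a paralog of TFB2M, was at 66.0% of complete in excess medium (log2 fold change -0.60, limma, adjusted p = 1.58e-06) and at 112% in cysteine-free medium (0.16, adjusted p = 0.16). The direct difference between cysteine-free and excess medium, 0.77 (limma, adjusted p = 1.51e-08), was the widest rise among the 35. TFB1M shares 1264 exon bases with TIAM2 on the other strand, and reads spread evenly over TIAM2, if counted for both genes, would make up 15.9% of its count in complete and 27.4% in excess medium. GRSF1, an RNA-binding protein of the mitochondrial RNA granules, fell by 0.16 in excess (limma, adjusted p = 3.18e-03) and by 0.26 in cysteine-free medium (limma, adjusted p = 3.34e-03). The former call was lost with equal totals over nuclear genes, with quantile normalization and without excess replicate 4.

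**Figure D4:**
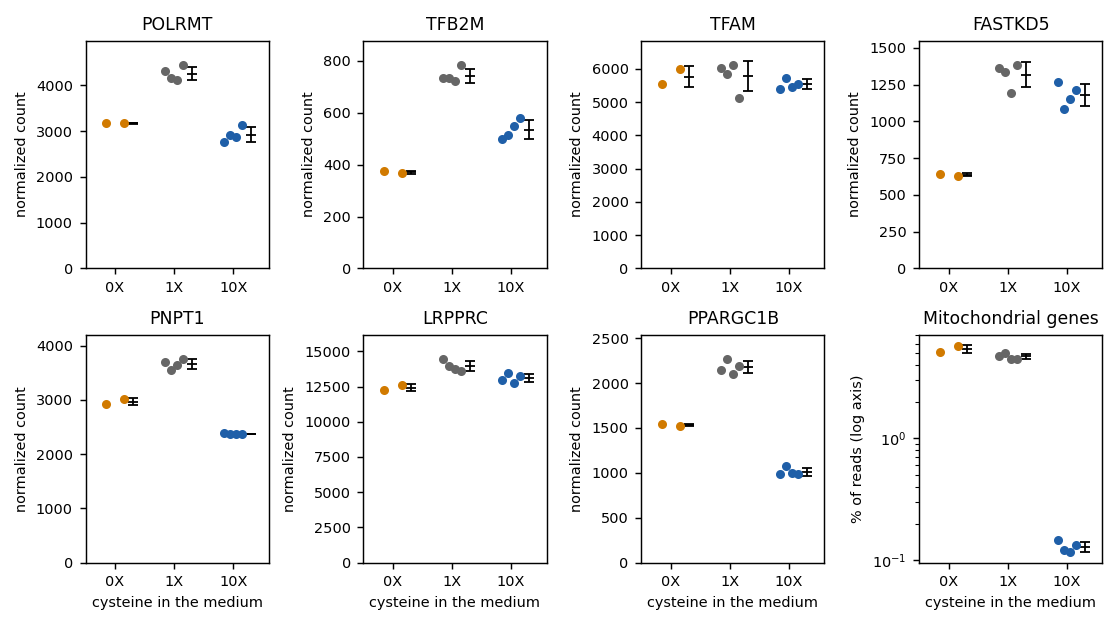
Normalized counts of 7 genes of the machinery and the share of reads on the 37 mitochondrial genes (last panel, log axis) by cysteine in the medium (0X cysteine-free, 1X complete, 10X excess), with a point per library and the mean ± SD beside it. POLRMT, TFB2M, PNPT1 and PPARGC1B are below complete medium in both altered media and FASTKD5 at 0X, TFAM overlaps, and the mitochondrial share is near 5% at 0X and 1X and between 0.117% and 0.146% at 10X.

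Of the 8 RNA stability genes, 5 were called lower in excess (median -0.29) and 2 in cysteine-free medium (median -0.16). LRPPRC and SLIRP, which form a complex that protects mitochondrial mRNAs and their tails, were unequal. LRPPRC read 14443, 13939, 13761 and 13635 in the complete, 12934, 13485, 12780 and 13231 in the excess and 12254 and 12582 in the cysteine-free libraries. Both altered media lay below all complete libraries, but the log2 fold changes of -0.09 (SE 0.0344, limma, adjusted p = 3.55e-02) in excess and -0.17 (SE 0.0467, adjusted p = 1.68e-02) in cysteine-free medium were not called, and the former was 0.04 with quantile normalization. SLIRP read 2309, 2099, 2198 and 2156 in the complete, 1329, 1318, 1358 and 1457 in the excess and 1705 and 1826 in the cysteine-free libraries. The 3 groups did not overlap: the log2 fold change was -0.68 (SE 0.0515, limma, adjusted p = 6.74e-09) in excess and -0.31 (SE 0.0661, adjusted p = 3.37e-03) in cysteine-free medium, with a direct difference of 0.37 (limma, adjusted p = 5.11e-06). SLIRP shares 118 exon bases with SNW1 on the other strand.

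MTPAP, the poly(A) polymerase of mitochondria, fell by 0.28 in excess medium (limma, adjusted p = 2.13e-04) and was at -0.16 in cysteine-free medium (limma, adjusted p = 0.123). The FASTK family of RNA-binding proteins split by member. TBRG4, also known as FASTKD4, read 3816, 3753, 3575 and 3789 in the complete, 2789, 3075, 3018 and 3144 in the excess and 2672 and 2542 in the cysteine-free libraries. It was lowest in cysteine-free medium, with a log2 fold change of -0.52 (SE 0.0577, limma, adjusted p = 3.21e-05) there and -0.31 (SE 0.0463, adjusted p = 1.90e-05) in excess. FASTKD2 and FASTKD3 fell by 0.32 and 0.43 in excess medium (limma, adjusted p = 6.99e-05 and 6.02e-04) and had log2 fold changes of -0.11 and 0.15 in cysteine-free medium, neither called. FASTK and FASTKD1 were called in neither medium.

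Of the 3 decay genes, 1 was called lower in excess and 2 in cysteine-free medium. PNPT1, the exonuclease of the mitochondrial degradosome, read 3709, 3545, 3653 and 3752 in the complete, 2382, 2374, 2376 and 2369 in the excess and 2921 and 3014 in the cysteine-free libraries. The 3 groups did not overlap, and the log2 fold change was -0.63 (SE 0.0406, limma, adjusted p = 1.02e-09) in excess and -0.30 (SE 0.0558, adjusted p = 1.29e-03) in cysteine-free medium. SUPV3L1, the helicase of the same complex, was at 97.9% in excess medium (limma, adjusted p = 0.575) and fell by 0.28 in cysteine-free medium (limma, adjusted p = 5.27e-03). REXO2, which clears the last short oligonucleotides, was called in neither medium. None of the 3 was called higher in excess medium, and a part of RNA decay in the loss of mitochondrial RNA was not tested.

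Of the 3 nuclear regulators, PPARGC1B moved most. This coactivator of NRF1 and other factors of mitochondrial biogenesis (ENSG00000155846, chr5:149730298-149855022, plus strand) read 2148, 2267, 2107 and 2191 in the complete, 983, 1079, 1001 and 991 in the excess and 1541 and 1527 in the cysteine-free libraries. The 3 groups did not overlap. Its log2 fold change was -1.10 (SE 0.0514, limma, adjusted p = 1.76e-11) in excess, the deepest of the 35, and -0.51 (SE 0.063, adjusted p = 7.86e-05) in cysteine-free medium. NRF1 was at 89.0% of complete in excess (limma, adjusted p = 3.29e-02) and at 99.4% in cysteine-free medium, neither called. GABPA, the DNA-binding subunit of the ETS factor GABP, was called lower in excess medium by 0.14 (limma, adjusted p = 7.69e-03). This call was lost under 10 of the 19 alternatives. GABPA shares 692 exon bases with ATP5PF on the other strand, whose mean fell from 3556 in complete to 2579 in excess medium. Spread evenly and counted for both genes, ATP5PF reads would make up 29.2% of the GABPA count in complete and 23.4% in excess medium. The part of this overlap in the fall was not tested. Set beside the promoter matches, 18 of the 30 genes with a window were called lower in excess medium. They included all 4 with the NRF1 core and 9 of the 12 with the ETS core. MTERF1, MTERF4 and TEFM held the ETS core and were not called lower. Among protein-coding genes with a mean of at least 300, 37.9% were called lower in excess medium. The share called lower among all genes with either core was not determined, and no test was made of these counts.

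Of the 35 genes, 19 share exon bases with another gene in GENCODE 44. The methods name a directional library kit and state that reads over several genes were discarded. No strand setting of the counting is given in the sources used here. However, of 307 genes that lie wholly within exons of a gene on the other strand, 276 held a mean of at least 10 reads in the deposited table, and so did 361 of 463 on the same strand, so reads of both genes may be in the values of these 19. Whether they are was not tested gene by gene. This check used the exons of GENCODE 44, which may differ from those of the release used for the counting. Among the 16 that share none, 10 were called lower and none higher in excess (median -0.28), and 7 lower and none higher in cysteine-free medium (median -0.23). Over all genes tested, 22.9% were called lower and 23.1% higher in excess, and 8.51% and 7.39% in cysteine-free medium. Among protein-coding genes with a mean of at least 300 these shares were 37.9% and 29.7%, and 17.1% and 11.3%. The shares among all genes without shared exon bases were not determined.

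The other genes of the pathway were read from a list of 74, of which 73 were tested, covering mitochondrial DNA repair, nucleotide supply, the nucleoid, tRNA and rRNA modification, further decay factors and regulators. In excess medium 36 of the 73 were called lower and 12 higher (median -0.15). The shares lower and higher were 22.9% and 23.1% over all genes tested. Among protein-coding genes with a mean of at least 300 they were 37.9% and 29.7%, together 67.6%. In cysteine-free medium 21 were called lower and 6 higher (median -0.11). There the shares were 8.51% and 7.39% over all genes and 17.1% and 11.3% in the protein-coding set. The deepest falls in excess medium were those of the DNA glycosylase NTHL1 (log2 fold change -1.41), the rRNA methyltransferase MRM1 (-1.22), the mitochondrial nuclease ENDOG (-0.99) and QTRT1 (-0.90), a subunit of the queuosine transferase (limma, all called). The widest rises were those of PPARGC1A (1.32), the relative of PPARGC1B, of RRM2B (1.03) and TK2 (0.94), which supply deoxynucleotides to mitochondria, and of GABPB2 (0.84), a partner of GABPA (limma, all called). PPARGC1A is a low gene, with a mean of 23.6 in complete and 60.8 in excess medium, while PPARGC1B fell from 2178 to 1014. In cysteine-free medium TK2 (1.35), THG1L (0.75), GABPB2 (0.62) and PRIMPOL (0.61) rose most, and ESRRA (-0.72), YRDC (-0.72), ATAD3B (-0.62) and RCC1L (-0.60) fell most.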

How the data were processed

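Messenger RNA of HEK293T cells was measured in 2 cysteine-free, 4 complete and 4 excess-cysteine libraries, grouped by their titles. Per the labels and methods, the authors aligned reads to GRCh38 with STAR 2.7.10b, counted them on Ensembl genes and divided by DESeq2 size factors; the Ensembl release and the strand setting are not given in the sources used here. The methods name featureCounts as the counter, with reads over several genes discarded, and the labels name HTSeq. The deposited signal values were whole multiples of 1 step per library, so reads were recovered (100% of values whole within 0.1 of a read).

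IDs were given symbols with GENCODE 44, whose exons also gave the genes wholly within exons of 1 other gene of at least 1000 reads. The filter, a value of 10 or more in 3 or more libraries, left 29045 of 78894 genes. Log2(value + 1) was fitted with limma 3.58.1 (lmFit, eBayes with trend) in R 4.3.3 on the 2 groups compared, without a block. On simulated data with 100 genes changed by 1 and 100 by 0.5 on the log2 scale among 29045, limma called 99 and 73 in the excess, 94 and 55 in the cysteine-free and 89 and 50 in the direct comparison, with 4, 4 and 1 unchanged genes.

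The 35 genes, the 74 further genes and the markers were chosen with earlier results of these data known. All 35 are named; of the further genes, the 4 deepest falls and 4 widest rises called against complete medium. Per library, values are given for the gene of each role that moved most in either medium and for POLRMT, TFAM, LRPPRC and PNPT1. Genes on overlapping exons are named by annotation. Alternatives were other pseudocounts, filters, scalings and thresholds, all 3 groups in 1 fit, a replicate block, edgeR 4.0.16 and DESeq2 1.42.0 on recovered reads, and leaving out each library.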

Additional observations from a re-analysis of the deposited data

Results flagged for a closer look

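Of the 70 sets of 4 complete or 4 excess libraries of the 35 genes, 4 held a library far from the other 3 (Dixon's test at the 95% level), where chance gives about 3.5 such sets. TFB2M read 783 in complete replicate 4 and between 723 and 733 in the others. TEFM read 762 in excess replicate 3 and between 673 and 688 in the others. MTPAP read 1615 in excess replicate 2 (others 1527 to 1537), and FASTKD1 read 1422 there (others 1368 to 1376).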

How the results depend on the processing

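In excess medium 20 of the 22 calls among the 35 genes held under all 19 alternatives, the exceptions being GRSF1 and GABPA. The number called higher, 1, was 3 with equal nuclear totals, with quantile normalization and at an adjusted p of 0.05, 2 with the replicate block, edgeR or DESeq2, and 1 to 3 with a library left out; the added genes were MGME1, TEFM and, without complete replicate 3, FASTK. The median of -0.28 was -0.24 with equal nuclear totals, -0.23 with quantile normalization and between -0.28 and -0.24 with a library left out. In cysteine-free medium the genes called, 4618, were 738 with no filter, 7987 at an adjusted p of 0.05 and between 978 and 6300 with a library left out (1198 without cysteine-free replicate 1, 978 without replicate 2, 2968 without complete replicate 1 and 2795 without complete replicate 2). The 15 genes of the machinery called lower were 6 with no filter and between 8 and 16 with a library left out, where a lone cysteine-free library is assumed to vary like the other group; 6 of the 15 calls held under all 17 alternatives. Between cysteine-free and excess medium, with no filter, 8864 genes instead of 13954 were called and 4 instead of 7 genes of the machinery were lower. The difference in mitochondrial share, -4.58 percentage points in excess, was -3.79 for the 13 mRNAs. No call turned in direction. Same-numbered libraries correlated between -0.0281 and 0.0392 in their deviations from the group means over all genes tested. Such a correlation cannot show whether some genes share a batch. With the replicate block 2 genes of the machinery were called higher and 20 lower in excess medium. In cysteine-free medium 16 were called lower (6532 genes in all, instead of 4618). In the direct comparison 10 were called higher and 5 lower.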
